A study of Mus musculus with 2 samples.

Results

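The immediate early response genes of the embryonic mouse heart described here are 10 genes: Fos, Fosb, Jun, Junb, Jund, Egr1, Egr2, Ier2, Atf3 and Dusp1. They were chosen by name, and each symbol matched 1 of the 55536 genes annotated in GENCODE M21. RNA came from hearts of embryos at 12.5 days of gestation of strain B6NCrl, with males and females pooled. There were 2 libraries, biological replicates 2 and 1 of 1 group with no treatment and no control group, so the data allow levels within this tissue and the difference between the 2 libraries, and nothing about conditions. Each library was made from 10 ng of RNA primed with oligo-dT, and expected counts (estimated reads, with reads of several possible origins divided among them) summed to 32577548 in replicate 2 and 35520161 in replicate 1. Both carry 1 donor identifier but come from separate biosamples, so any p-value describes these samples alone.

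Immediate early genes are transcribed within minutes of a growth factor, mechanical or stress signal, without new protein synthesis, and their messages are usually short-lived. JUN proteins pair with each other or with FOS proteins to form AP-1, a transcription factor whose makeup decides what it binds and how strongly it activates. EGR proteins are zinc finger transcription factors, Atf3 encodes a stress-induced relative of AP-1 proteins, Ier2 encodes a small nuclear protein, and Dusp1 encodes a phosphatase that switches MAP kinases off. In the developing heart, Jun is needed for the outflow tract in the mouse. The same genes also respond to dissection and dissociation of tissue, and the share of their RNA that arose during collection was not tested.

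Sequence features that had no part in choosing the genes were read first, because such messages are known for AU-rich elements, short motifs in the 3′ UTR (the end of the message after its coding part) at which RNA-binding proteins shorten a message's life. The motif ATTTA, written as DNA, was present in the 3′ UTR of the main transcript of 9 of 10 genes, against 66.9% of 12386 detected protein-coding genes. The longer form TATTTAT, which contains ATTTA, was present in 6 of 10 genes, against 28.3%. The median density was 2.51 ATTTA per kilobase of 3′ UTR in the 10 genes and 1.28 in all detected protein-coding genes. Dusp1 had the highest density among the 10 genes, with 4 copies in 690 bases, and Fos followed with 4 copies in 815 bases. Ier2 had none in 755 bases. The following 30-base stretches of the M21 transcripts, 5′ to 3′ with each ATTTA in capitals, show overlapping, separate and lone copies.
Fos: attgtgttttcaATTTATTTAttaagatgg
Dusp1: atgggagctggtccttATTTATTTAacacc
Jun: ATTTAtaatcataggaaagATTTAgtaatt
Junb: ataatatatttgtgtATTTAacagggaggg
Jund: tgtccgattccgccctATTTAtgtttctac
Atf3: agagaaaatattacttATTTAtcccagtat
In Fos and Dusp1 the copies share bases, and in Jun they lie apart. The stretches of Junb, Jund and Atf3 hold 1 copy each, out of 2 in the whole 3′ UTR of Junb, 1 in that of Jund and 3 in that of Atf3. A motif match is a description of the letters, and no protein binding was measured.

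Promoter windows, from 250 bases before to 50 bases after each start site, were present in the RefSeq table (GRCm38.p6, the patched release of mm10) for 8 of the 10 genes, with 5 alternative windows for Egr2. Ier2 and Egr1 are named only. Both strands were searched for 11 motifs. The core TGACG, found in binding sites of the CREB and ATF families, was present in 6 of 8 genes (Fos, Fosb, Junb, Egr2, Atf3 and Dusp1), against 23.0% of the 27025 genes in the table, each counted once over all its windows. Here and below, that background was not limited to detected genes. It was also not matched for G and C content, which was above the median in most of these genes, or for the number of windows. The full cAMP response element TGACGTCA, which contains that core, was found in Dusp1 and in 2.03% of genes. Jun held TGACATCA, a variant known as a binding site for JUN and ATF2 dimers, present in 4.18% of genes. Atf3 held TGATGCAA on the other strand, a form of the site for ATF4 and its partners, present in 1.03% of genes. A stretch around 1 match in each of 6 genes is printed 5′ to 3′ on the gene's strand, with that match in capitals, because they hold letters known from binding sites of AP-1 relatives.
Dusp1 (chr17:26508588-26508635, minus strand): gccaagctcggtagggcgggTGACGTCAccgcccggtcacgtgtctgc
Jun (chr4:95052240-95052287, minus strand): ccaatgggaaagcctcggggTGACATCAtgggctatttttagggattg
Atf3 (chr1:191183416-191183463, minus strand): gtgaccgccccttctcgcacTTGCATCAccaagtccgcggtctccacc
Fos (chr12:85473804-85473848, plus strand): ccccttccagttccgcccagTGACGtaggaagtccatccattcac
Fosb (chr7:19310081-19310125, minus strand): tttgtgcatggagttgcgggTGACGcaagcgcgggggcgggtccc
Junb (chr8:84978830-84978874, minus strand): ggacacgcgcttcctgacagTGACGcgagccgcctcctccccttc
Of the other motifs searched, the CArG box bound by serum response factor was found in Egr2 alone (1.81% of genes). Egr2 had 5 windows to search, Egr1 had none, and a site farther from a start would be missed. TATAAA was found in Fos and Junb (15.7%). The EGR-type site GCGGGGGCG was found in Fosb (3.31%), GGGCGG in 6 of 8 genes (38.2%) and CCAAT in 4 of 8 (41.1%). Neither TGACTCA, the classical AP-1 site (5.95%), nor GCGTGGGCG (0.707%) was found in any of the 8 genes, which says only that those letters are not in these windows. The Jund window was the least GC-rich, at 46.7% G and C, against 56.0 to 72.0% in the other genes and a median of 52.7% over all windows. That window lies at the RefSeq start, 1210 bases before the start of the M21 model of Jund. The added length gained few reads, as given below, and no window at the M21 start was searched.

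Of the 10 genes, 8 were detected, meaning a TPM (a transcript level scaled by length and by the library's total) of at least 1 in both libraries. The share detected was 25.7% of all 55536 annotated genes and 56.6% of the 22028 protein-coding genes. Among the 14246 detected genes the 8 genes lay between the 25.8 percentile (Fos) and the 93.3 percentile (Jund) of mean TPM. Their median percentile was 55.8, so most of them stood neither among the scarcest nor among the most abundant messages of this heart. In whole tissue, a low level can come from few expressing cells or from little RNA in each cell, and these cannot be told apart.

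**Figure D1:**
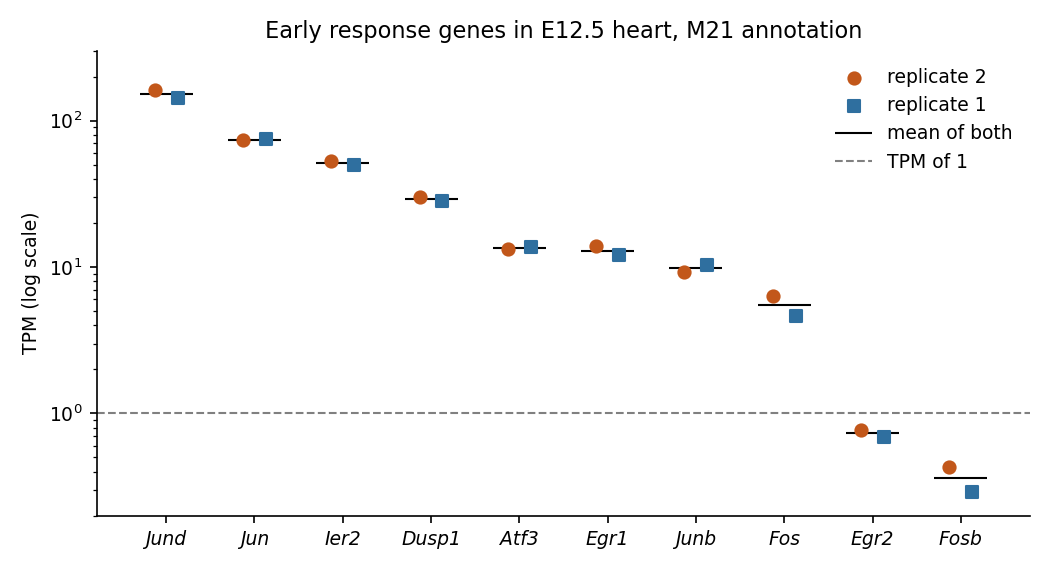
TPM on a log scale of the 10 genes in replicate 2 (circles) and replicate 1 (squares) on the M21 annotation, with black lines at the mean of both and a dashed line at a TPM of 1. The levels run from Jund at 152 TPM to Fosb at 0.36 TPM, the ranges of Atf3 and Egr1 overlap, and Egr2 and Fosb lie under 1.

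Among the 10 genes, the JUN family held most of the RNA, by TPM on M21. Summed over Jun, Junb and Jund, it stood at 244 TPM in replicate 2 against 228 TPM in replicate 1, which was 67.5% of the summed TPM of the 10 genes in replicate 2 and 67.6% in replicate 1. Jund (ENSMUSG00000071076, chromosome 8, 70698949 to 70700616 on mm10), the member that most cell types express steadily, was the most abundant, with 160.7 TPM in replicate 2 against 143 TPM in replicate 1. Jun (ENSMUSG00000052684, chromosome 4, 95049034 to 95052222), the founding AP-1 gene, stood at 74.1 TPM in replicate 2 against 74.4 TPM in replicate 1. Junb (ENSMUSG00000052837, chromosome 8, 84974484 to 84978718), which often opposes Jun in proliferating cells, was scarcer, with 9.25 TPM in replicate 2 against 10.4 TPM in replicate 1. On the log2 scale with 0.5 added to each TPM, Jun exceeded Junb by 2.86 ± 0.11 (SD, n = 2) within a library, and the Junb to Jund log2 ratio was -3.89 ± 0.23. The 3 genes kept the order Jund, Jun, Junb in both libraries on M21, and their ranges did not overlap. The place of Jund above Jun did not hold on the older annotation.

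The FOS family was far lower. Fos (ENSMUSG00000021250, chromosome 12, 85473890 to 85477273), which cannot form AP-1 without a JUN partner, stood at 6.31 TPM in replicate 2 against 4.65 TPM in replicate 1, from 272 counts in replicate 2 and 226 in replicate 1. Fosb (ENSMUSG00000003545, chromosome 7, 19302696 to 19310051), its close relative, stood at 0.43 TPM in replicate 2 against 0.29 TPM in replicate 1, from 34 counts in replicate 2 and 23 in replicate 1, under the detection minimum in each library. Both genes read higher in replicate 2. Summed, Fos and Fosb reached 6.74 TPM in replicate 2 against 4.94 TPM in replicate 1, so the JUN family carried 36.2 times the TPM of the FOS family in replicate 2 and 46.1 times in replicate 1 (41.2 ± 7.02, SD, n = 2). On the older annotation, M4, where Jund reads lower, the ratio was 23.6 in replicate 2 and 31.2 in replicate 1. Within a library, Jun exceeded Fos by 3.66 ± 0.29 on the log2 scale. Messages were measured here, and the amounts of AP-1 proteins were not.

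Among the EGR genes, Egr1 (ENSMUSG00000038418, chromosome 18, 34859823 to 34864984), the widely expressed member of the family, stood at 13.9 TPM in replicate 2 against 12.0 TPM in replicate 1. Egr2 (ENSMUSG00000037868, chromosome 10, 67535475 to 67542188), known for its part in hindbrain and Schwann cell development, stood at 0.77 TPM in replicate 2 against 0.69 TPM in replicate 1, from 36 counts in replicate 2 and 43 in replicate 1. Egr1 exceeded Egr2 by 3.45 ± 0.07 on the log2 scale with 0.5 added. Egr1 was thus detected in both libraries, and Egr2 was read by under 50 counts in each.

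The remaining 3 genes belong to different classes. Ier2 (ENSMUSG00000053560, chromosome 8, 84661331 to 84662852) ranked next after the abundant JUN genes, with 53.0 TPM in replicate 2 against 49.7 TPM in replicate 1. Dusp1 (ENSMUSG00000024190, chromosome 17, 26505590 to 26562128) stood at 30.1 TPM in replicate 2 against 28.4 TPM in replicate 1. Atf3 (ENSMUSG00000026628, chromosome 1, 191170296 to 191218039) stood at 13.2 TPM in replicate 2 against 13.7 TPM in replicate 1. Ier2 exceeded Egr1 by 1.95 ± 0.07 on the log2 scale, and Dusp1 exceeded Atf3 by 1.09 ± 0.10. In the order Jund, Jun, Ier2, Dusp1, Atf3, Egr1, Junb, Fos, Egr2 and Fosb, the neighbours Atf3 and Egr1 overlapped between libraries and are not separated beyond their spread. The other 8 neighbouring pairs did not overlap, although with 2 libraries the spread itself is poorly known.

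The libraries were then compared with each other, by an exact binomial test on scaled counts that covers counting error only. A gene was called at a Benjamini-Hochberg adjusted p under 0.05, over the 17970 genes whose counts summed to 20 or more, together with a log2 ratio of 1 or more in either direction. Of the 10 genes, 0 were called, against 1.57% of all genes tested (282 genes, with 0.707% higher and 0.863% lower in replicate 2). At an unadjusted p under 0.05 and any size there were 3 (Fos, Jund and Egr1), against 22.5% of all genes. With the estimated dispersion of edgeR's exact test also 0 were called, against 0.874% of all genes. Without the fold threshold 2 of 10 passed, Fos and Jund, against 10.0% of all genes. Both passed as higher in replicate 2, as did 4.28% of all genes, whereas 5.73% of all genes and 0 of the 10 passed as lower.

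Fos read 272 counts in replicate 2 and 226 counts in replicate 1, a log2 ratio of 0.38 after scaling (exact 95% interval 0.12 to 0.64, Benjamini-Hochberg adjusted p = 0.0392, exact binomial test). Jund read 5628 counts in replicate 2 and 5542 counts in replicate 1, a log2 ratio of 0.14 (0.08 to 0.19, adjusted p = 3.99e-05 by the same exact test). Neither passed once the spread between the libraries was included through the dispersion that edgeR estimated: the adjusted p values of its exact test were 0.413 for Fos and 0.917 for Jund. The Fos call also ended when every gene with a count was tested, at an adjusted p of 0.0583 by the exact binomial test. That dispersion came from the same 2 libraries in a fit with no groups, so it includes their difference.

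For the other 8 genes the differences missed the threshold, and their exact intervals show what remains possible. The intervals of Jun, Ier2 and Dusp1 were narrow: Jun had a log2 ratio of -0.04 (-0.09 to 0.02), Ier2 of 0.06 (-0.03 to 0.16) and Dusp1 of 0.03 (-0.09 to 0.14). Egr1 had a ratio of 0.14 (0.01 to 0.27) with an adjusted p of 0.189, and Junb of -0.19 (-0.40 to 0.01) with an adjusted p of 0.257, both by the exact binomial test. Atf3 lay at -0.09 (-0.25 to 0.08). The scarce genes were the least certain: Fosb had a ratio of 0.67 (-0.13 to 1.51) and Egr2 of -0.14 (-0.82 to 0.53), so for both genes no difference was detectable at this depth. In all, 6 genes had a ratio above 0 and 4 below it. The median log2 ratio was 0.04, against -0.01 over all genes tested.

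**Figure D2:**
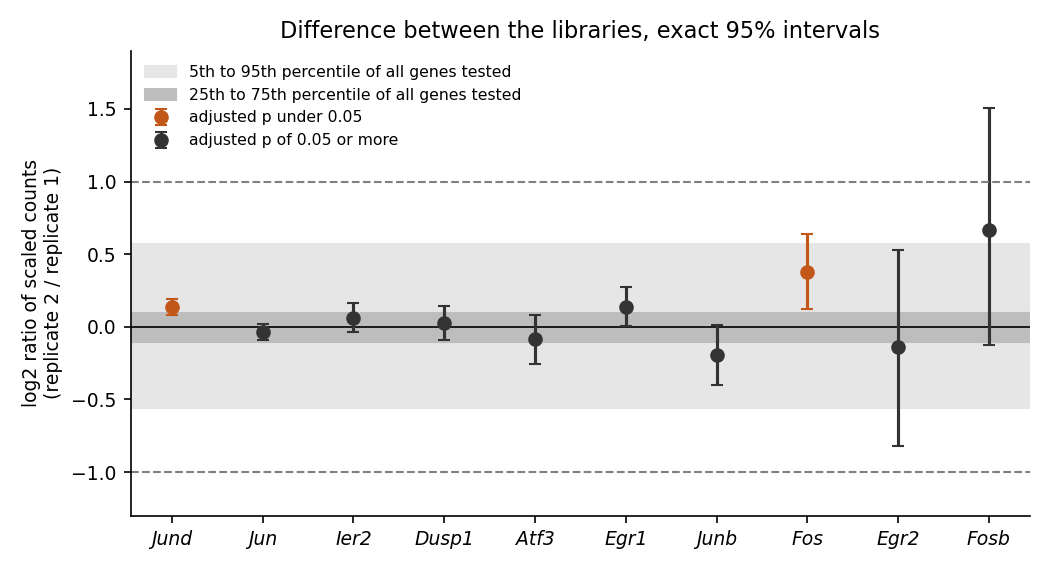
Log2 ratio of scaled counts, replicate 2 over replicate 1, with exact 95% intervals of counting error for each of the 10 genes, over grey bands for all 17970 genes tested and dashed lines at a ratio of 1 and -1. Each of the 10 points lies between the dashed lines, Fos at 0.38 and Jund at 0.14 are the coloured points, and Fosb has the widest interval, from -0.13 to 1.51.

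Facts of the libraries that stand beside this comparison are as follows. All 8 cardiomyocyte markers of the labelled tissue were detected, with a summed level of 35416 TPM in replicate 2 against 35081 TPM in replicate 1. Markers of hepatocytes summed to 64.5 TPM in replicate 2 against 235 TPM in replicate 1. Of these, 8 of 8 were called lower in replicate 2, against 0.863% of all genes tested. Erythroid markers summed to 30643 TPM in replicate 2 against 34196 TPM in replicate 1. Markers of lung and foregut endoderm summed to 7.58 TPM in replicate 2 against 4.17 TPM in replicate 1. Of these, 1 of 5 was called higher in replicate 2, against 0.707% of all genes tested, and Sftpc had 0 counts in replicate 1. The part of these differences in the Fos and Jund ratios was not tested. Endothelial, epicardial, cushion mesenchyme, macrophage and neuronal lists had no gene called.

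The Jund level depended on the gene model, which matters because Jund leads the order. On the older annotation, M4, Jund stood at 78.8 TPM in replicate 2 against 70.1 TPM in replicate 1, so M21 exceeded M4 by 1.02 in replicate 2 and by 1.03 in replicate 1 on the log2 scale. Jund alone of the 10 genes differed between annotations by at least 0.5 in both libraries, a size reached by 6.71% of 13643 detected genes. The other 9 genes differed by at most 0.11. The Jun to Jund log2 ratio was -1.03 ± 0.12 on M21 and 0.06 ± 0.12 on M4 (SD, n = 2), where it was -0.03 in replicate 2 and 0.15 in replicate 1, so on M4 these 2 genes could not be ordered. The Junb to Jund log2 ratio was -3.89 ± 0.23 on M21 and -2.83 ± 0.23 on M4.

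Both the model's length and its reads differed. The Jund model spans 1668 bases on M21 and 2878 bases on M4, and the RefSeq gene also spans 2878 bases, starting 1210 bases before the M21 model. Inside Jund, on the opposite strand, lies Gm11175, an antisense gene (chromosome 8, 70699162 to 70700080), which M21 gives 292 counts in replicate 2 and 450 counts in replicate 1. M4 gives Gm11175 1301 counts in replicate 2 and 1458 counts in replicate 1, while Jund itself has 4679 counts there in replicate 2 and 4603 in replicate 1. The use of strand is not stated, so reads of the 2 genes cannot be told apart, and the deposited posterior standard deviation of the count was the same for both on M21, 50.1 counts in replicate 2 and 52.3 in replicate 1. Summed, Jund and Gm11175 changed little between annotations, with 5920 counts on M21 and 5980 on M4 in replicate 2, and 5992 on M21 and 6061 on M4 in replicate 1. The longer M4 model thus gained 60 counts in replicate 2, or 1.00% of the M4 sum, and 69 in replicate 1, or 1.14%, for a length of which M21 lacks 42.0%. With the counts of both genes over the Jund length of each annotation, Jund would stand at 162 ± 10.1 TPM on M21 and 96.5 ± 5.97 TPM on M4 (an alternative chosen after the values were seen). On either length that sum stood above Jun, which stood at 74.2 ± 0.226 TPM on M21 and 77.5 ± 0.205 TPM on M4. Adding counts can only raise Jund, so the sum does not settle the order of the 2 genes on M4. Between libraries, the summed locus had a log2 ratio of 0.10, with an adjusted p of 0.00613 by the exact binomial test.

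**Figure D3:**
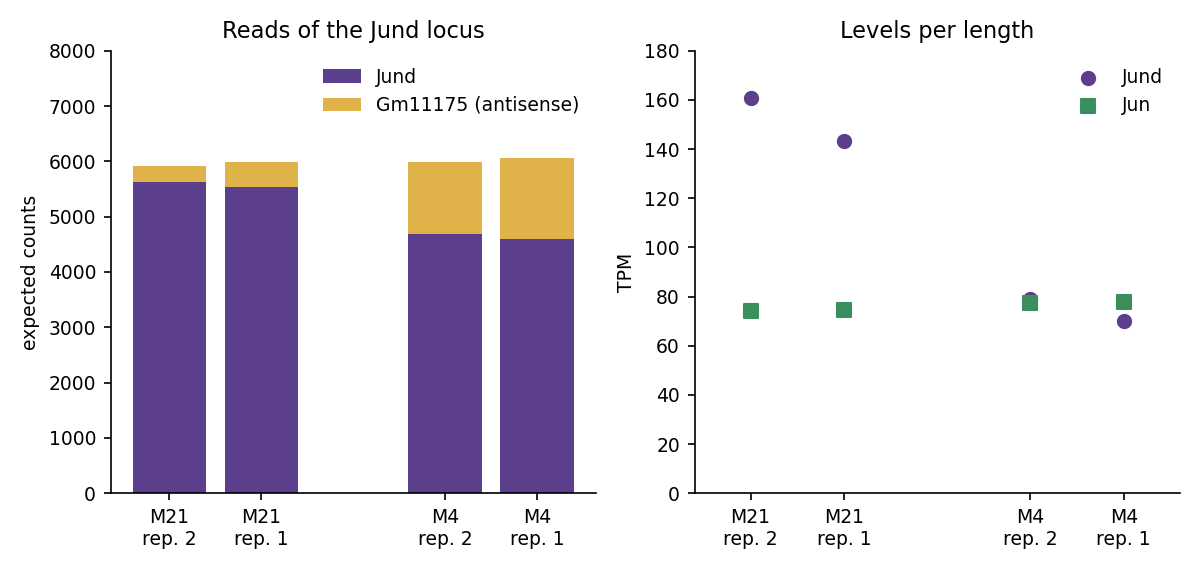
Left, expected counts of Jund (purple) and of the antisense gene Gm11175 (yellow) in each library on the M21 and M4 annotations. Right, TPM of Jund and Jun: the stacked counts reach about the same height in the 4 bars, whereas Jund stands at 160.7 and 143 TPM on M21 and beside Jun on M4.

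Other members also overlap genes of the opposite strand. Over its whole M21 span of 4235 bases, Junb shares 351 bases with Prdx2, an abundant antioxidant enzyme gene. Prdx2 had 12384 counts in replicate 2 and 14537 counts in replicate 1. The single-exon model Junb-201, of 1809 bases, held all Junb counts, and Junb-202 held 0. The RefSeq start used above lies at the end of the span away from Prdx2. Jun shares 689 bases with the antisense gene Junos, read by 9.91 counts in replicate 2 and by 10.9 in replicate 1. The long M21 model of Dusp1 shares 640 bases with Ergic1, a secretory pathway gene with 3878 counts in replicate 2 and 4130 in replicate 1. The deposited posterior standard deviation was at most 1.31 counts for Jun and 0.19 for Junb, and 0 for Dusp1, far below that of Jund.

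The main transcript has a single exon in 4 of 10 genes (Jun, Junb, Jund and Ier2), against 2.50% of 12386 detected protein-coding genes. In 6 of 10 genes (Fos, Jun, Junb, Jund, Ier2 and Atf3) 1 model held at least 90% of the gene's expected counts in both libraries. For Jun, Jund and Ier2 the annotation holds a single model, so their share was fixed. By shares of the posterior mean TPM the number was 4 of 10, and by counts of replicate 2 or replicate 1 alone it was 9 or 7. The posterior standard deviation of Atf3-201 was 27.3 counts in replicate 2 and 19.7 in replicate 1, so its full share is uncertain. Fos-201, the full coding transcript, held 97.7% of Fos counts in replicate 2 (95% Clopper-Pearson interval 95.3 to 99.2%) and 99.0% in replicate 1 (96.8 to 99.9%). These intervals cover counting error only, and not the uncertainty of sharing reads between models.

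Dusp1 alone of the 8 detected members has annotated retained-intron models, transcripts that keep an intron. They held 186 counts or 15.3% of Dusp1 in replicate 2 (13.4 to 17.5%) and 126 counts or 9.77% in replicate 1 (8.21 to 11.5%). The intervals do not overlap, but they leave out the uncertainty of sharing reads between models, so they do not settle whether the share differed. Over 7099 detected protein-coding genes with such a model and at least 200 counts, the median share was 4.34% in replicate 2 and 4.21% in replicate 1, and 51.5% of genes were higher in replicate 2. The posterior standard deviation of Dusp1-203, the longer of the retained-intron models, was 21.4 counts in replicate 2 and 18.6 in replicate 1, beside 135 expected counts in replicate 2 and 97.5 in replicate 1. The coding transcript Dusp1-202 held 84.7% in replicate 2 and 90.1% in replicate 1. Its posterior standard deviation was 27.7 counts in replicate 2 and 26.3 in replicate 1.

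Egr1 counts were assigned mainly to Egr1-202, which held 90.8% of counts in replicate 2 (88.8 to 92.6%) and 84.3% in replicate 1 (81.7 to 86.5%). That model has 3 exons and an intron of only 36 bases, against 2 exons in Egr1-201. Whether that intron is spliced was not tested. Egr1-201, which is longer, held 9.18% in replicate 2 and 15.7% in replicate 1, with a posterior standard deviation of 12.5 counts in replicate 2 and 15.7 in replicate 1. Egr2-201 held 96.4% of Egr2 counts in replicate 2 and 70.9% in replicate 1, from under 50 counts in each library. For Fosb the assignment was unsettled: all 34 counts of replicate 2 went to Fosb-205, whereas the 23 counts of replicate 1 went to Fosb-207 (9.29), Fosb-201 (7.20), Fosb-205 (3.38), Fosb-204 (2.28) and Fosb-206 (0.85). Fosb-206 and Fosb-207 splice out an intron of 140 bases, as the shortened ΔFosB form does. Their posterior standard deviations, up to 4.63 counts, leave no firm level of that form in either library.

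**Figure D4:**
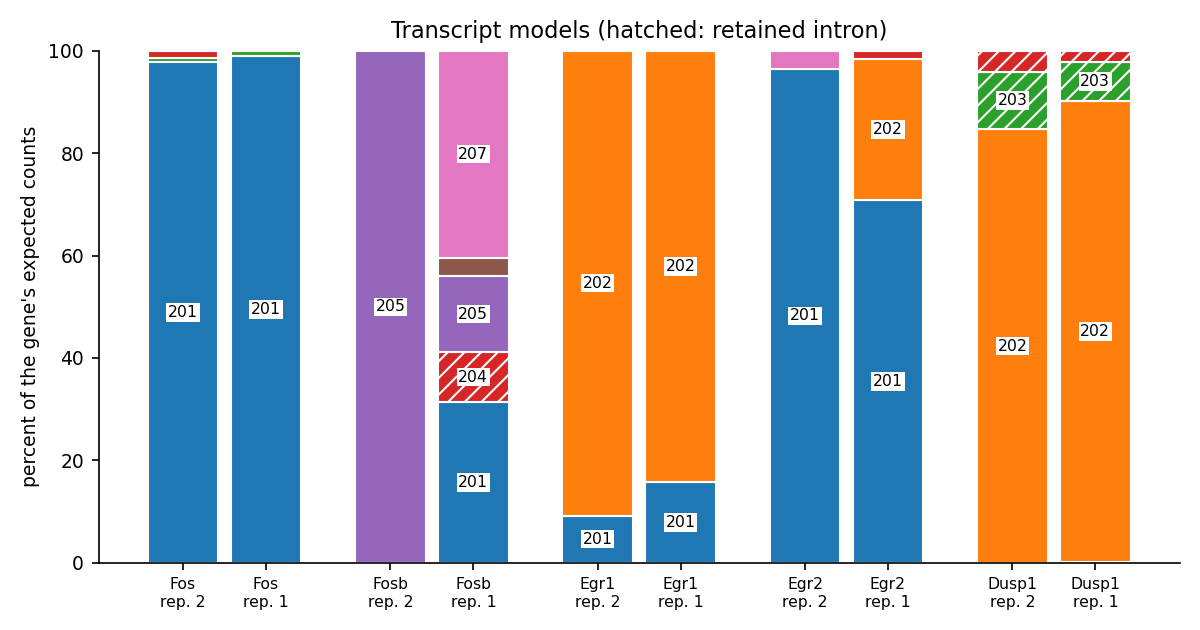
Percent of each gene's expected counts on each transcript model, replicate 2 left of replicate 1, for the 5 genes whose counts fell on more than 1 model, numbered by model with retained-intron models hatched. The hatched Dusp1 share is 15.3% in replicate 2 and 9.77% in replicate 1, and the Fosb bars differ in nearly every segment at 34 and 23 counts.

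The pathways around these genes were present in the same RNA. No gene of any of the 10 lists, which hold 140 entries, was called between the libraries with the fold threshold, against 1.57% of all genes tested. Across the lists, 127 entries were detected, where 56.6% of all protein-coding genes were.

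Upstream, early genes are switched on by serum response factor (SRF) with its partners and by MAP kinases. The SRF list had 8 of 8 genes detected (median 14.0 ± 0.612 TPM, SD, n = 2). Myocd, the SRF coactivator of heart and smooth muscle, led it with 58.3 TPM in replicate 2 against 56.9 TPM in replicate 1, above Elk3 at 30.4 ± 2.24 TPM and Elk4 at 16.0 ± 0.559 TPM. The MAP kinase cascade had 27 of 28 genes detected (median 29.8 ± 0.88 TPM), led by the kinase Map2k2 at 128 ± 1.75 TPM. Mapk10, the neuronal JNK gene, stood at 0.31 ± 0.10 TPM. By the exact binomial test without the fold threshold, 2 genes of the first list were higher in replicate 2 and 1 lower, and 1 higher and 1 lower of the second. Of all genes tested, 4.28% passed as higher and 5.73% as lower, and such small counts are no result about these lists.

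Among relatives of the members, 16 of 19 other AP-1 and bZIP genes were detected (median 5.80 ± 0.403 TPM). Atf4, a regulator of amino acid stress responses, led with 61.0 ± 1.73 TPM, followed by Atf2 at 38.3 ± 1.18 TPM and Atf1 at 28.8 ± 1.20 TPM. Fosl1 (0.01 ± 0.01 TPM), Batf2 (0.06 ± 0.08 TPM) and Jdp2 (0.57 ± 0.18 TPM) stayed under 1 in both libraries. Of 19 other early transcription factor genes 15 were detected (median 8.26 ± 0.785 TPM), led by Id1 at 69.7 ± 1.51 TPM, Klf6 at 56.2 ± 2.48 TPM and Klf10 at 30.7 ± 0.332 TPM. The 4 under the minimum were Egr3, Egr4, Nr4a3 and Npas4, of which Egr4 (0.05 ± 0.06 TPM) and Npas4 (0.08 ± 0.03 TPM), an activity-dependent gene of neurons, were the lowest. Of 24 other early effectors 20 were detected (median 20.0 ± 0.955 TPM), led by Plk2, a kinase, at 132 ± 2.18 TPM. Txnip, an inhibitor of thioredoxin, stood at 115 ± 2.86 TPM and Ccn1, a matrix protein, at 75.6 ± 3.41 TPM. The inflammatory genes Cxcl1 and Ptgs2 stood at 0.06 ± 0.08 and 0.10 ± 0.04 TPM. In these 3 lists Ier5 and Ccn2 passed the test without the fold threshold, both higher in replicate 2, as did 4.28% of all genes tested.

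Feedback and turnover genes were detected throughout. The other dual specificity phosphatases had 9 of 9 genes detected (median 13.5 ± 0.389 TPM), led by the MAP kinase phosphatase Dusp6 at 42.8 ± 2.32 TPM, above Dusp1 itself at 29.2 ± 1.25 TPM, with Dusp2 at 19.6 ± 1.42 TPM and Dusp16 at 18.2 ± 1.59 TPM. Both EGR corepressors were detected, Nab1 at 24.2 ± 2.01 TPM and Nab2 at 10.6 ± 0.212 TPM. Proteins that bind AU-rich elements had 8 of 8 genes detected (median 60.5 ± 1.35 TPM), led by Hnrnpd at 175 ± 11.3 TPM, Elavl1 at 167 ± 3.09 TPM and Tia1 at 116 ± 9.57 TPM. The list labelled JUN turnover and coactivators, which also holds the corepressor Ncor1, had 9 of 9 genes detected (median 39.3 ± 1.73 TPM). Cops5, a signalosome subunit that binds JUN, led it at 128 ± 1.16 TPM, above Ncor1 at 107 ± 5.62 TPM and Cop1 at 71.5 ± 11.6 TPM. Without the fold threshold, 1 gene each of the EGR corepressor and AU-binding lists was lower in replicate 2, and 2 genes of the JUN list were higher. The shares of all genes tested were 5.73% lower and 4.28% higher.

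The heat shock list, which like the early genes responds to stress of tissue, had 13 of 14 genes detected (median 141 ± 1.55 TPM). The constitutive chaperone Hspa8 stood at 1717 ± 14.1 TPM, Hsp90ab1 at 1024 ± 1.14 TPM and Hspb1 at 756.1 ± 60.7 TPM. The inducible genes Hspa1a (4.90 ± 0.113 TPM) and Hspa1b (0.10 ± 0.01 TPM) were the lowest of the list. As near-identical copies they may trade reads, so each value is uncertain. Every other gene of the list stood higher, down to Bag3 at 16.9 ± 0.304 TPM, so these low values do not describe the list. Without the fold threshold 4 of 13 tested heat shock genes were lower in replicate 2 and 0 higher, against 5.73% and 4.28% of all genes. Their log2 ratios were small: -0.06 for Hspa8, -0.20 for Hspb1, -0.09 for Dnaja1 and -0.13 for Hsph1. In a test of counting error alone, highly counted genes pass at small ratios, and all genes tested include many with low counts.

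**Figure D5:**
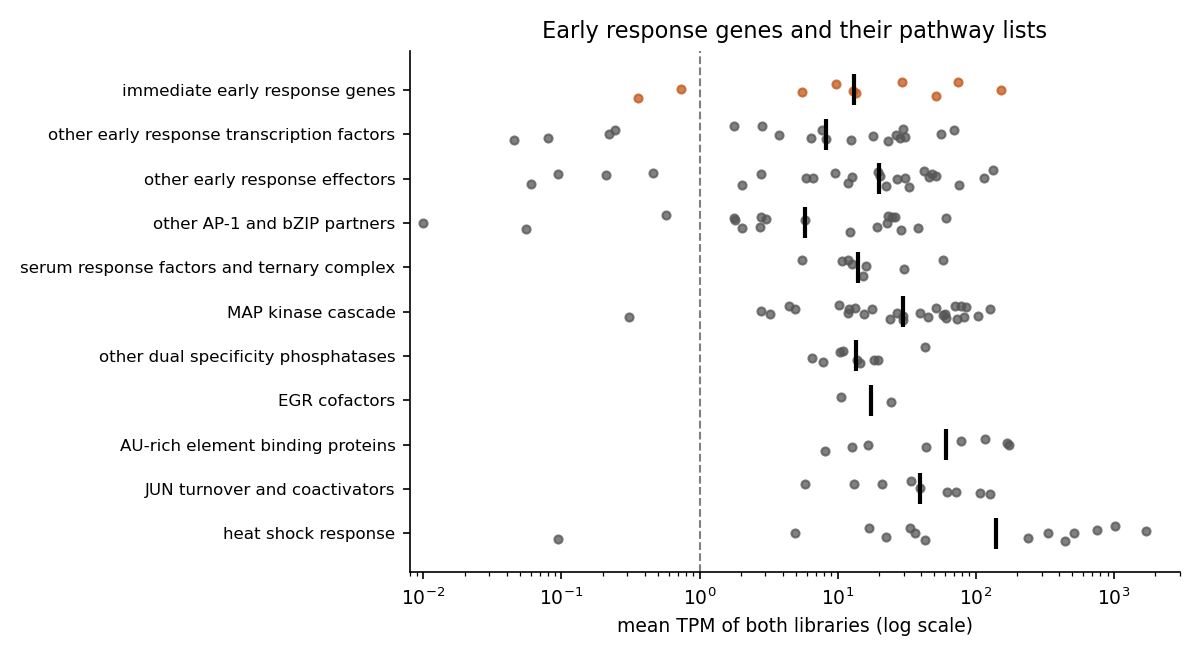
Mean TPM of both libraries on a log scale for the 10 early response genes (top row, coloured) and for each gene of the 10 other lists, with black bars at the list medians and a dashed line at a TPM of 1. The early response genes have a median of 13.2 TPM, between the other early transcription factors at 8.26 TPM and the heat shock genes at 141 TPM.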

How the data were processed

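PolyA-selected RNA of 2 libraries was used. The authors deposited expected counts, TPM and FPKM values per gene and transcript on annotations M21 (used here as the main one) and M4 of mm10, per the file headers and the text beside the tables. The deposited tables also give a posterior standard deviation of each count, and the percent of a gene's TPM on each transcript, which was computed here from TPM for the alternative. The layout is that of RSEM, and for the aligner, the counter and the use of strand the sources used here give nothing. The members and the gene lists were chosen with earlier results of these data known.

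Expected counts were rounded to whole numbers, scaled by TMM (edgeR 4.0.16, R 4.3.3) and compared by a two-sided exact binomial test (scipy 1.17.1), with 0.5 added to scaled counts for ratios; a quasi-likelihood test could not be fitted with 1 library on each side. Rows that name no gene were left out: ERCC spike-ins held 3.63% of counts in replicate 2 and 3.58% in replicate 1, and numeric identifiers 0.000117% and 0.000115%. On data simulated for this comparison over 17994 genes, 200 of 200 genes changed 4-fold were called, and 1 unchanged gene. Those data held counting error only, and the changed genes were picked among well counted ones. They therefore give no measure of the test for scarce genes, for smaller changes or under spread between libraries. The edgeR alternative used a common biological coefficient of variation of 4.58% from an intercept-only fit. Intervals cover counting error only. All members were named, with the 3 highest genes of each list and up to 2 under a TPM of 1. A few genes that this rule names are left unreported. A few further list genes were named after their values were seen: Jdp2, Nr4a3, Egr3, Hspa1a, Bag3, Dnaja1, Hsph1, Ier5, Ccn2 and the marker Sftpc, with the genes that overlap a member. Genes most like the members were not named, since 2 libraries cannot measure likeness. DESeq2 1.42.0 gave alternative size factors.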

Additional observations from a re-analysis of the deposited data

How the results depend on the processing

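No paired analysis was possible because the study has 1 group. Of 76 alternative values of the 11 summary results, 65 stayed within the limits set for change. Most of these limits were wide bounds on a count and did not check direction. Transcript shares of 9 and of 4 genes thus passed as unchanged beside 6, and so did 7 of 8 family ratios on M4. By posterior mean TPM 9 members were detected, beside 8 by TPM. The Jun to Jund log2 ratio turned round on M4, to 0.0604. Without the fold threshold, 1 member passed when every gene with a count was tested and 0 with edgeR's estimated dispersion. Over all genes, the called number was 60 at a summed count of at least 100 and 157 with edgeR's dispersion, which gave 239 without the fold threshold. The median percentile of detected members was 56.3 on M4, 51.1 with counts not divided by length and 51.3 among protein-coding genes, and leaving out a replicate gave 57.6 to 58.3. No member passed a difference of 0.5 between annotations in counts, against 1 in TPM, since the Jund lengths differ. Depth limits Fosb and Egr2, at 57 and 79 counts over both libraries. Other causes were not tested.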
